A study of Mus musculus with 4 samples.

Results

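Cdx1, Cdx2, Hnf4a and Hnf4g encode transcription factors that give the intestinal epithelium its identity. Open chromatin around these 4 genes was described in stem cells of the small and the large intestine. Regions were built by merging all peaks of the 4 libraries that shared at least 1 bp, and every region inside a member gene or within 100 kb of it was taken. This gave 122 of the 119965 regions of the series, with no region falling in the window of more than 1 member.

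Cdx1 and Cdx2 are homeodomain proteins related to Drosophila caudal, and Cdx2 is required in mice to keep the intestinal epithelium from taking on a foregut-like fate. Hnf4a and Hnf4g are nuclear receptors that bind overlapping sites and act together on genes of enterocyte differentiation and lipid handling. Cdx and Hnf4 proteins bind many of the same enhancers in intestinal cells.

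ATAC-seq, in which a transposase cuts accessible DNA, was run on sorted crypt cells of Lgr5-EGFP-IRES-creERT2 mice aged 6 to 12 weeks, which carry EGFP under the control of the stem cell gene Lgr5. The first group, SISC, held 2 libraries of EGFP-positive, CD24-negative cells from small intestine, taken at stated distances from the pylorus and the cecum. The second group, LISC, held 2 libraries of EGFP-positive cells from the large intestine between cecum and rectum, for which no CD24 gate is named. Mice of both groups carried the same reporter allele and were untreated. The tissue and the CD24 gate therefore differ together between the groups and cannot be told apart, and the labels leave unsaid which mice the replicates came from. In sorted bulk cells, fewer cells with an open region and less opening per cell cannot be told apart either.

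The peak lists held 83443 and 93220 peaks in SISC replicates 1 and 2 and 91313 and 88739 in LISC replicates 1 and 2. On the Y chromosome, 6 peaks were listed for SISC replicate 1, 8 for LISC replicate 1, and 0 for each other library. Gene ends of the stem cell markers were called in all 4 libraries for 5 of 6 genes, the exception being Axin2, called in 2 libraries. All 4 epithelial markers were called in all 4 libraries. At the ends of Olfm4 and Gata4, genes of the small intestine, only the 2 SISC libraries had a call. At Car1, of the large intestine, only the 2 LISC libraries had one. Among markers of other cells, all 4 libraries had a gene end region at 1 of 3 Paneth, 3 of 3 goblet and deep secretory, 2 of 2 enteroendocrine, 1 of 2 tuft, 0 of 3 immune and 2 of 4 stromal, endothelial and muscle genes. Their part in the results below was not tested.

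The deposited value used throughout is the −log10 q of the strongest peak of a library in a region. It is the authors' own value, it grows with the depth of its library, and the median over a whole list was 36.1 and 32.8 in SISC and 35.6 and 26.2 in LISC. Levels were therefore compared through ranks. Each of the 57829 regions called in all 4 libraries, termed shared, was given its rank percentile within each library, from 0 for the weakest to 100 for the strongest. With 2 libraries against 2, an exact test over libraries cannot give a p below 1 divided by 3. The differences below are accordingly descriptions without a p-value, set beside the same count over all regions.

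Regions called in all 4 libraries were the largest class at the 4 loci, as in the whole series. Of the 122 regions, 66 were called in all 4 libraries, or 54.1%, beside 48.2% of all regions. Regions called in both SISC libraries and neither LISC library, termed SISC-only, numbered 12, or 9.84%, beside 7.96% of all regions. The reverse, LISC-only, held for 10, or 8.20%, beside 10.2% of all regions. Another 34 regions had other patterns, among them 14 called in SISC replicate 2 alone, 2 in LISC replicate 1 alone and 6 in LISC replicate 2 alone. The shares near the members thus lay close to those of the whole series.

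Most of the group-only regions had a weak call. The lower of the 2 calls that define a region had a median −log10 q of 8.68 for SISC-only and 7.96 for LISC-only regions, beside 11.8 and 12.2 over all regions of these classes. It was under 10 in 7 of 12 SISC-only and 9 of 10 LISC-only regions, beside 41.5% and 39.1% over all regions of these classes. With only peaks of −log10 q of at least 10, 9 of 99 regions in these windows were SISC-only and 1 was LISC-only. The shares of all regions were 8.40% and 10.1%. Without SISC replicate 1 the SISC-only count was 26, or 21.1%, beside 17.7% of all regions. Without LISC replicate 1 the LISC-only count was 16, or 13.3%, beside 16.2% of all regions. By gene, leaving out SISC replicate 1 gave 7 SISC-only regions at Cdx1, 7 at Cdx2 and 5 at Hnf4g. Leaving out LISC replicate 1 gave 4 SISC-only regions at Cdx1, and 3 LISC-only regions at Cdx2 and 4 at Hnf4g, and leaving out LISC replicate 2 gave 3 LISC-only regions at Cdx1.

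**Figure D1:**
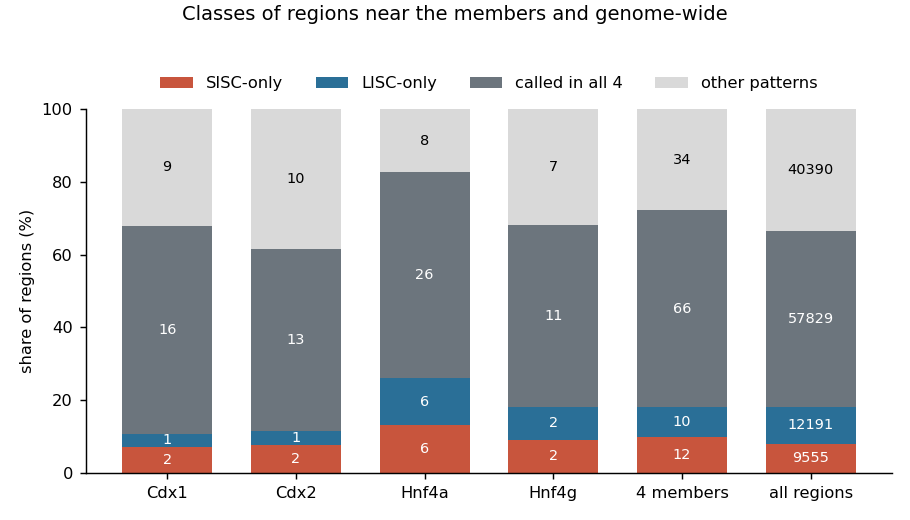
Share of regions in each class (vertical axis, percent) for Cdx1, Cdx2, Hnf4a and Hnf4g, for the 4 genes together and for all 119965 regions, with the number of regions printed in each block. SISC-only and LISC-only regions make up 9.84% and 8.20% at the 4 genes, beside 7.96% and 10.2% of all regions. Hnf4a holds 6 of each among its 46 regions.

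Every member carried a region at a start or end in all 4 libraries, as did 62.1% of 21883 protein-coding genes. None had such a region in both libraries of 1 group alone, a pattern found at 1.38% of genes for SISC and 0.695% for LISC. The size of the window differed with the gene, from 206 kb for Cdx2 to 352 kb for Hnf4g. Hnf4a had 46 regions in its window, a count reached by 3.08% of protein-coding genes, Cdx1 28, Cdx2 26 and Hnf4g 22, beside a median of 20 over all genes.

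**Figure D2:**
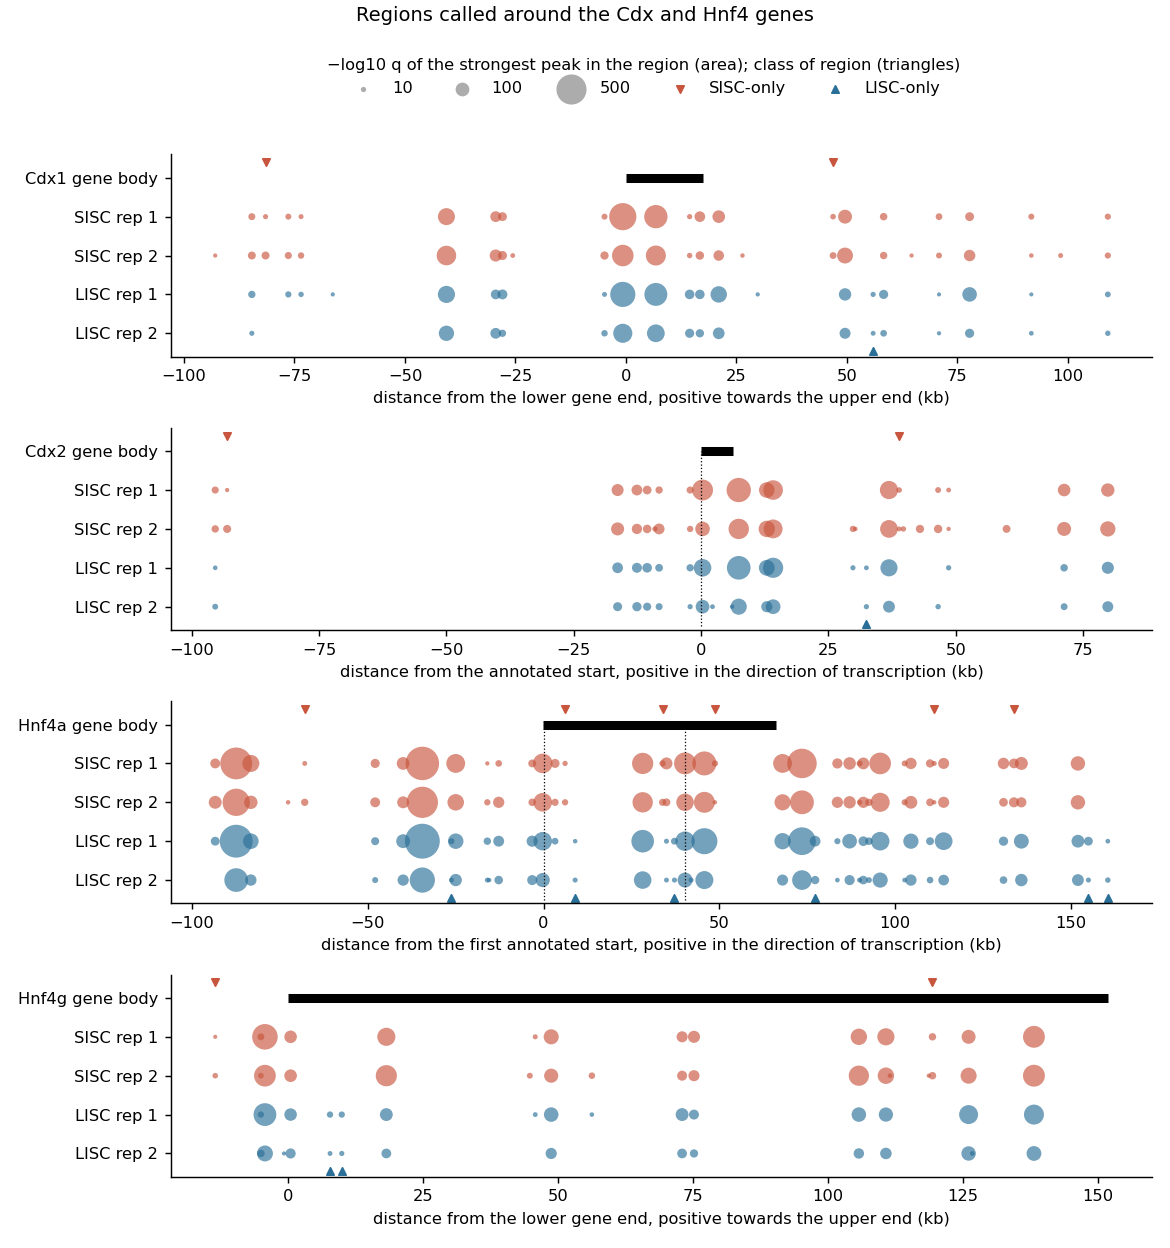
Regions in the window of each gene by library, with the distance from the annotated start or the lower gene end in kb on the horizontal axis. The area of a circle gives the −log10 q of the strongest peak, black bars mark the gene body, dotted lines annotated starts, and triangles SISC-only (above) and LISC-only (below) regions. The strong regions recur in all 4 libraries, while the marked group-only regions are small.

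Cdx2 (chr5:147300900-147307249, mm10, minus strand) had a region over its start in every library. The region chr5:147306190-147307724 reached a −log10 q of 239 and 113 in SISC and 167 and 99.7 in LISC. The groups overlapped, and the rank percentiles averaged 76.5 in SISC and 75.8 in LISC. The strongest peak had its summit 21 and 86 bp inside the gene in SISC replicates 1 and 2, and 22 and 93 bp inside in LISC replicates 1 and 2. The fold enrichment at this summit was 6.83 and 4.099 in SISC and 5.15 and 3.84 in LISC. The RefSeq promoter window (GRCm38.p6, the mm10 assembly), from 250 bases before to 50 after the start, lay wholly under a peak in each library. It is shown because every library opened it. Capitals mark matches to the motifs searched.
Cdx2 promoter, chr5:147307200-147307499, minus strand: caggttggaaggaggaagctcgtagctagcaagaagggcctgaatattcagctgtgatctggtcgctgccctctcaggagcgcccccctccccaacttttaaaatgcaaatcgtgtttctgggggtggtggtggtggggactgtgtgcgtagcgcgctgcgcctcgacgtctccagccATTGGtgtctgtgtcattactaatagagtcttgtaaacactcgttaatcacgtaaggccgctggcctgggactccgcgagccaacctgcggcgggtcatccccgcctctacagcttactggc
It held 18 CG dinucleotides, against a median of 7 over 32851 promoter windows. Its only match was to the NF-Y letters CCAAT, at position 179 (counted from 1 at the 5′ end of the window) on the reverse strand, a motif found in 37.4% of all promoter windows on either strand.

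The strongest region away from the Cdx2 start lay 227 bp beyond the other end of the gene, at chr5:147299028-147300673. It had a −log10 q of 324 and 226 in SISC and 306 and 140 in LISC, above the region at the start in each of the 4 libraries. Its rank percentiles overlapped between the groups, with means of 88.6 in SISC and 87.1 in LISC. A neighbouring region, chr5:147294090-147294597, ranked at 71.5 and 75.6 in SISC and at 70.4 and 61.6 in LISC, so the groups did not overlap although SISC replicate 1 and LISC replicate 1 lay close. Of the 26 regions in the Cdx2 window, 13 were called in all 4 libraries, beside 48.2% of all regions. Another 2 were SISC-only and 1 was LISC-only, beside 7.96% and 10.2% of all regions. None of these 3 group-only regions was inside Cdx2. The nearest gene end belonged to Cdx2 for 7 of the 26 regions, so most of this window too is the neighbourhood of other genes.

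Among the 13 shared regions of the Cdx2 window, 6 ranked higher in both SISC libraries than in both LISC libraries and 1 ranked lower, where 30.4% and 25.4% of all shared regions did so. The number ranked higher was 10 of 13 without SISC replicate 2, beside 41.8% of all shared regions. It was 10 of 14 without LISC replicate 1, beside 42.3%. The number ranked lower was 3 of 14 without LISC replicate 2, beside 34.98%. The largest difference was at chr5:147235347-147236605, in no annotated protein-coding gene and 70.6 kb from the Cdx2 start. The −log10 q there was 83.2 and 104 in SISC and 26.0 and 21.4 in LISC. The rank percentiles were 59.0 and 65.4 in SISC and 22.1 and 24.9 in LISC, a difference of 38.7 points that 1.43% of shared regions reached. This region was nearer to Pdx1, a homeodomain factor of pancreas and duodenum, which it preceded by 33.5 kb. The Pdx1 start lay in a shared region too, chr5:147269835-147270881, with a −log10 q of 180 and 170 in SISC and 158 and 73.3 in LISC. Of the remaining regions given to Pdx1, 1 was SISC-only (chr5:147268194-147268525, with 11.9 and 7.72 in SISC) and 1 was LISC-only (chr5:147274660-147274927, with 7.46 and 9.77 in LISC). The other SISC-only region of the window lay at an end of the cytokine receptor gene Flt3, at chr5:147399970-147400588, and had 4.59 and 31.0 in SISC. The shared region ranked lowest in SISC against LISC, inside Urad at chr5:147317350-147318311, had a difference of -6.86 points, which was -3.41 without SISC replicate 2 and -1.31 with ranks of fold enrichment.

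Cdx1 (chr18:61018862-61036199), which in mice is expressed most strongly in crypts, had shared regions at both ends. The sources used here give no strand for Cdx1, so its ends are called lower and upper. The region beside the lower end, chr18:61017498-61018784, had a −log10 q of 406 and 253 in SISC and 347 and 198 in LISC. It was the strongest of the regions at the members' starts and ends in every library, and the groups overlapped, with mean rank percentiles of 91.7 in SISC and 92.0 in LISC. The region over the upper end, chr18:61034433-61036718, also overlaps the predicted gene Gm52351. It had 58.2 and 34.7 in SISC and 45.4 and 32.9 in LISC, again with overlapping groups. Inside the gene, chr18:61024968-61026272 had 297 and 218 in SISC and 288 and 170 in LISC, at mean rank percentiles of 87.4 in SISC and 88.7 in LISC.

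A weaker region inside Cdx1 had the opposite order from most differences at these loci. At chr18:61032576-61033951, 2.25 kb inside the upper end, the −log10 q was 9.88 and 11.1 in SISC and 46.1 and 41.2 in LISC. Both LISC libraries ranked below the middle of the shared regions, at percentiles of 38.4 and 46.7. Both SISC libraries ranked near the weakest, at 5.41 and 4.53. The difference was -37.6 points, and 3.08% of shared regions were as low or lower. With ranks of fold enrichment in place of −log10 q the difference was -6.25 points. A second region beyond the same end, chr18:61039366-61040328, ranked at 59.2 and 44.1 in SISC and at 72.4 and 65.1 in LISC. They lay 2.25 kb inside and 3.17 kb outside the upper end of Cdx1, and no other shared region of the Cdx1 window ranked lower in both SISC libraries. When 1 library was left out, the number ranked higher in this window reached 7 of 17 (without SISC replicate 2), beside 41.8% of all shared regions. The number ranked lower reached 6 of 16 (without SISC replicate 1), beside 36.3%.

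The 28 regions of the Cdx1 window also held 2 SISC-only regions and 1 LISC-only region, beside 7.96% and 10.2% of all regions. All 3 lay outside the gene, inside Camk2a (chr18:60937150-60937476, 9.36 and 30.2 in SISC) or Pdgfrb (chr18:61065568-61065868, 12.4 and 20.9 in SISC; chr18:61074643-61074917, 9.62 and 7.75 in LISC). Of the 16 shared regions, 3 ranked higher in both SISC libraries, beside 30.4% of all shared regions, led by chr18:61089352-61090021 at 20.1 and 14.3 in SISC and 4.01 and 4.53 in LISC. The median rank difference over the 16 was 0.811 points. The nearest gene end belonged to Cdx1 for 3 of the 28 regions, so most of this window is the neighbourhood of other genes.

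Hnf4a (chr2:163506811-163572907, plus strand) is transcribed from an upstream promoter known as P2 and a downstream promoter known as P1, which give proteins with different amino-terminal ends. P1 products predominate in adult liver, and in the intestine both are used. RefSeq gave 2 starts, 40.3 kb apart, and both lay in regions called in all 4 libraries. At the first start the region chr2:163506092-163507158 had a −log10 q of 209 and 189 in SISC and 185 and 107 in LISC. Its rank percentiles were 82.2 and 82.5 in SISC and 78.6 and 77.6 in LISC, a difference of 4.27 points without overlap, which 35.9% of shared regions reached. At the second start the region chr2:163546627-163547620 had 264 and 166 in SISC and 206 and 120 in LISC. Its rank percentiles were 86.8 and 79.1 in SISC and 81.1 and 80.9 in LISC, so the groups overlapped.

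The summit at the second start was 10 and 11 bp before it in the SISC libraries and 11 bp before it in each LISC library. At the first start it was 75 and 80 bp before it in SISC and 68 and 110 bp before it in LISC. A peak covered both promoter windows in full in all 4 libraries. Their sequences are shown beside each other because the promoters share their openness in both tissues and differ in their letters. Shown with them is the window of Hnf4aos, a long noncoding RNA gene annotated on the opposite strand (chr2:163493804-163541721), whose start lies 5.43 kb before the second start of Hnf4a. It was added after its values had been seen.
Hnf4a first start (P2), chr2:163506607-163506906, plus strand: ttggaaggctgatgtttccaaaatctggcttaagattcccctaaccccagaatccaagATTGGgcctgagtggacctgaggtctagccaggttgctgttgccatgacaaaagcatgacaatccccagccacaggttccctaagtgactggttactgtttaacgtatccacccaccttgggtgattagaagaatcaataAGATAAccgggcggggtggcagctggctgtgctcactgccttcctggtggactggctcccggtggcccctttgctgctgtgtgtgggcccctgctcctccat
Hnf4a second start (P1), chr2:163546905-163547204, plus strand: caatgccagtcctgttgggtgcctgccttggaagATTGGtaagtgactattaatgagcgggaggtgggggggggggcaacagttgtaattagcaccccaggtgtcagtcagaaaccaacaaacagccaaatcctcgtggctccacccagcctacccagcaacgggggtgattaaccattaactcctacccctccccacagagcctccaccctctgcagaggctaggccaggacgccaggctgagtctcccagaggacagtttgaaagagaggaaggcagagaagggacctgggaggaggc
Hnf4aos start, chr2:163541672-163541971, minus strand: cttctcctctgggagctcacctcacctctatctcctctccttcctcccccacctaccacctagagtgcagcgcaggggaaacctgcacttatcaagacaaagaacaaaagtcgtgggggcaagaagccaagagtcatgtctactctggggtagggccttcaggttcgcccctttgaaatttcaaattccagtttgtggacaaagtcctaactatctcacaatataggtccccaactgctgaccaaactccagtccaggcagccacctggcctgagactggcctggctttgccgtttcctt
Capitals again mark matches on either strand. The first start had the Gata letters AGATAA at position 199 and the NF-Y letters CCAAT on the reverse strand at position 59. The second start had CCAAT on the reverse strand at position 35, and the Hnf4aos window had no match. AGATAA occurs in 11.2% of all promoter windows. The Cdx letters TTTATNG (10.9% of windows), the Hnf4 letters CAAAGTCCA (0.475%) and the Tcf/Lef letters CTTTGAT (3.73%) were found in none of the 4 windows printed here. The 3 windows held 4 CG dinucleotides each.

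**Figure D3:**
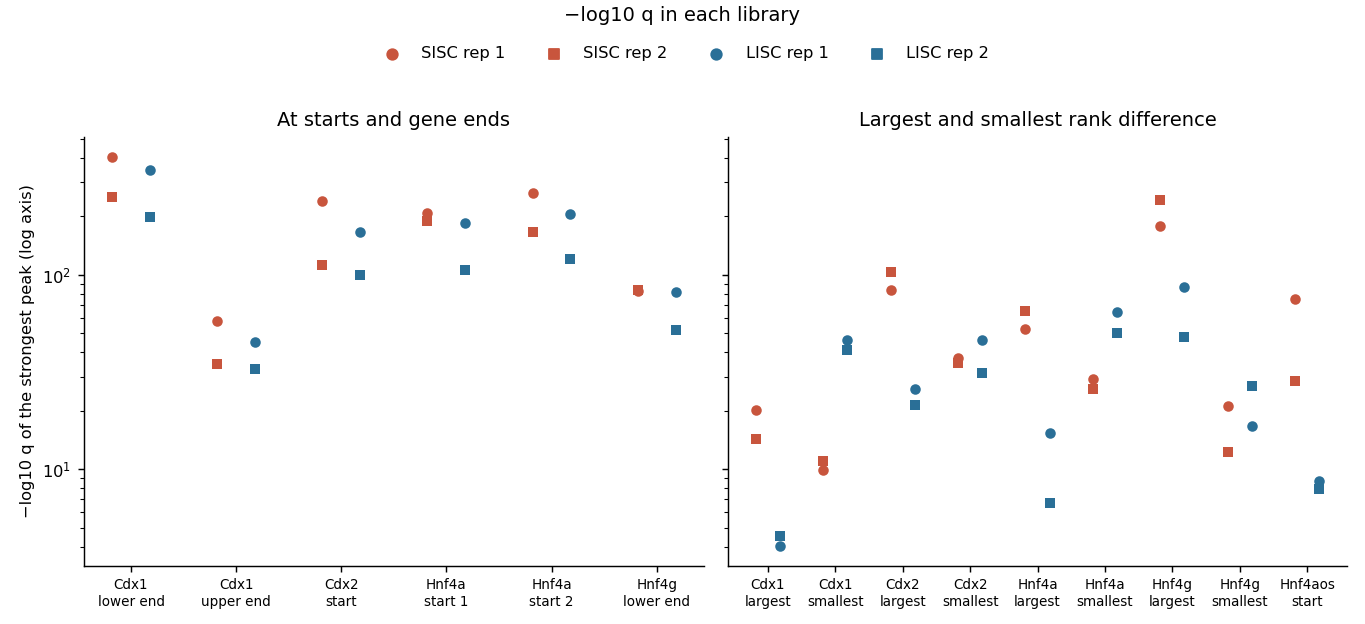
−log10 q of the strongest peak (log axis) in each library, SISC left and LISC right within each column, circles for replicate 1 and squares for replicate 2. The left panel has the regions at annotated starts or gene ends, where the groups overlap or lie close. The right panel has, for each gene, the shared regions with the largest and smallest rank difference, SISC minus LISC, and the Hnf4aos start, where both SISC libraries lie above both LISC libraries (74.8 and 28.6, against 8.70 and 7.91).

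Inside Hnf4a, the largest rank difference of a shared region lay between its starts. The region over the Hnf4aos start, chr2:163541511-163542165, had a −log10 q of 74.8 and 28.6 in SISC and 8.70 and 7.91 in LISC. Both LISC libraries were low, and the SISC libraries were higher but far apart from each other. The rank percentiles were 55.7 and 22.0 in SISC and 3.10 and 3.88 in LISC, a difference of 35.4 points that 1.99% of shared regions reached. The difference was 22.5 points without SISC replicate 1, 53.2 without SISC replicate 2 and 15.0 with ranks of fold enrichment. Directly beside it lay the SISC-only region chr2:163540190-163541255, with 16.5 and 22.8 in SISC. In the other direction, the LISC-only region chr2:163543899-163544306, 2.85 kb before the second start, had 21.3 and 9.10 in LISC. Regions of both kinds thus stood within a few kilobases of each other upstream of the second start.

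Of the 46 regions in the Hnf4a window, 26 were called in all 4 libraries, or 56.5%, beside 48.2% of all regions. Another 6 were SISC-only and 6 were LISC-only, beside 7.96% and 10.2% of all regions. Of protein-coding genes, 2.60% had as many SISC-only regions in their windows and 3.29% as many LISC-only regions. The total of 46 regions was itself reached by 3.08% of them. Inside the gene there were 12 regions, of which 5 were shared, 3 SISC-only and 2 LISC-only. The other SISC-only regions inside the gene were chr2:163512813-163513163, with 10.2 and 16.8 in SISC, and chr2:163555500-163555744, with 16.01 and 5.02. The other LISC-only region inside it, chr2:163515641-163516067, had 5.84 and 8.79 in LISC. All of these were weak beside the regions at the starts.

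The strongest group-only region that had Hnf4a as its nearest gene was LISC-only. It lay 10.8 kb beyond the end of Hnf4a at chr2:163583754-163584512, in no protein-coding gene, with 59.2 and 33.4 in LISC. It was the LISC-only region that passed a −log10 q of 10 in both libraries. The SISC-only region with the highest values, chr2:163640484-163640929, had 47.7 and 51.0 in SISC and was inside Serinc3, 67.6 kb from the end of Hnf4a. The remaining SISC-only regions lay at an end of Gdap1l1 (chr2:163438366-163439454, 8.004 and 24.3) and in Ttpal (chr2:163617557-163618473, 8.63 and 5.69). The remaining LISC-only regions were inside Pkig (chr2:163661420-163662350 with 38.0 and 9.02, and chr2:163667233-163667589 with 7.12 and 11.2) and near Fitm2 (chr2:163480521-163480815, 14.5 and 8.03).

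Among the 26 shared regions of the Hnf4a window, 9 ranked higher in both SISC libraries and 7 ranked lower, beside 30.4% and 25.4% of all shared regions. The number ranked higher was 14 of 26 without SISC replicate 2, beside 41.8%. The number ranked lower was 11 of 28 without SISC replicate 1, beside 36.3%. It was 11 of 26 with ranks of fold enrichment, beside 27.4%. The largest difference was downstream, at chr2:163590200-163590729, 17.3 kb beyond the end of the gene. The −log10 q there was 53.0 and 64.9 in SISC and 15.4 and 6.67 in LISC, and the rank difference of 40.4 points was reached by 1.26% of shared regions. With ranks of fold enrichment it was 17.7 points. The smallest was just upstream of the first start, at chr2:163503214-163504051, 2.76 kb before the gene. There the −log10 q was 29.3 and 25.8 in SISC and 64.6 and 50.4 in LISC, with rank percentiles of 27.0 and 19.2 in SISC and 48.7 and 53.7 in LISC. The difference was -28.1 points, and 6.03% of shared regions were as low or lower. With ranks of fold enrichment it was -13.8 points. Beyond the gene, chr2:163590200-163590729 lay at 17.3 kb and the LISC-only region chr2:163583754-163584512 at 10.8 kb. Shared regions lay nearer, at 1.03 kb (chr2:163573938-163575794) and 6.89 kb (chr2:163579797-163580978). The one at 1.03 kb ranked higher in both SISC libraries, with a difference of 10.9 points. At 6.89 kb the groups overlapped, with a −log10 q of 479 and 310 in SISC and 422 and 209 in LISC. The strongest shared region of the window was at an end of Fitm2, a lipid droplet gene (chr2:163471834-163472915), with 620 and 538 in SISC and 674 and 349 in LISC.

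Most shared regions of Hnf4g (chr3:3508030-3659800) ranked higher in SISC. Of its 11 shared regions, 8 ranked higher in both SISC libraries and 2 lower, where 30.4% and 25.4% of all shared regions did so. With ranks of fold enrichment these counts were 5 and 3, beside 26.1% and 27.4% of all shared regions. With any 1 of the 4 libraries left out the number ranked higher was 8, where the share of all shared regions lay between 41.3% and 42.8%. The 11 regions belong to 1 locus and are not independent of each other. Hnf4g was also the nearest gene of all 22 regions of its window, and no region was called within 100 kb of its upper end on the far side.

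The largest of these differences was inside the gene, at chr3:3525701-3526713, 17.7 kb from the lower end. The −log10 q was 178 and 244 in SISC and 86.4 and 47.9 in LISC. The rank percentiles were 78.6 and 88.4 in SISC and 57.6 and 51.9 in LISC, a difference of 28.8 points that 3.58% of shared regions reached. It was 15.8 points with ranks of fold enrichment. It was 49.4 points when each list was limited to its 40000 strongest peaks. Next came chr3:3613337-3614063, with 144 and 223 in SISC and 112 and 55.5 in LISC, at a rank difference of 19.0 points. At chr3:3582888-3583453 the values were 76.4 and 63.6 in SISC and 49.6 and 32.7 in LISC, a difference of 12.6 points. At chr3:3618303-3619114 the values were 159 and 146 in SISC and 108 and 68.8 in LISC, a difference of 11.8 points. Going the other way, chr3:3580781-3581163 had 62.9 and 50.6 in SISC and 87.3 and 47.4 in LISC, a difference of -9.59 points. The other region ranked lower in both SISC libraries, chr3:3633532-3634511, had 104 and 138 in SISC and 195 and 111 in LISC. Its difference was -9.47 points.

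Smaller differences were found around the lower end of Hnf4g. The region over it, chr3:3507623-3509336, had 82.5 and 83.6 in SISC and 82.0 and 51.9 in LISC, with rank percentiles of 58.8 and 58.1 in SISC and 55.9 and 54.8 in LISC. The region of the window with the highest mean percentile, chr3:3503401-3504052, lay 3.98 kb outside this end. It had 358 and 258 in SISC and 284 and 137 in LISC, and a difference of 4.81 points. The lowest difference among the shared regions, -9.75 points, was beside it at chr3:3502690-3503263, where the groups overlapped with 21.1 and 12.3 in SISC and 16.7 and 26.7 in LISC. This difference was -21.0 without LISC replicate 1, -15.02 without SISC replicate 1, -2.29 without SISC replicate 2, -1.35 without LISC replicate 2 and -4.56 with ranks of fold enrichment. No region lay within 1 kb of the upper end.

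The Hnf4g window held 2 SISC-only and 2 LISC-only regions among its 22, beside 7.96% and 10.2% of all regions. The SISC-only region chr3:3626932-3627733, inside the gene, had 25.4 and 25.9 in SISC, and chr3:3494194-3494849, 13.2 kb outside the lower end, had 4.08 and 12.1. The LISC-only regions chr3:3515420-3516138 and chr3:3517694-3518217 lay side by side inside the gene, 7.39 and 9.66 kb from the lower end, with 17.0 and 7.89 in the first and 16.5 and 9.65 in the second. In each of these 2 regions LISC replicate 2 was under 10.

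Over the 4 loci together, 26 of 66 shared regions ranked higher in both SISC libraries and 12 ranked lower, or 39.4% and 18.2%, beside 30.4% and 25.4% of all shared regions. The median rank difference was 2.36 points, beside 0.721 over all shared regions. By gene window it was 7.55 points at Cdx2, 4.81 at Hnf4g, 1.44 at Hnf4a and 0.811 at Cdx1. Only 5 of the 13 shared regions in the Cdx2 window had Cdx2 as nearest gene. Of these 5, 1 ranked higher in both SISC libraries and 0 ranked lower, beside 30.4% and 25.4% of all shared regions. With ranks of fold enrichment the counts over the 4 loci were 21 and 16, or 31.8% and 24.2%, beside 26.1% and 27.4%. With each library left out in turn, 32 to 39 ranked higher, or 45.1% to 58.2%, where 41.3% to 42.8% of all shared regions did so. Without SISC replicate 1 the number ranked lower was 22 of 68, beside 36.3% of all shared regions. Without LISC replicate 2 it was 20 of 71, beside 34.98%.

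**Figure D4:**
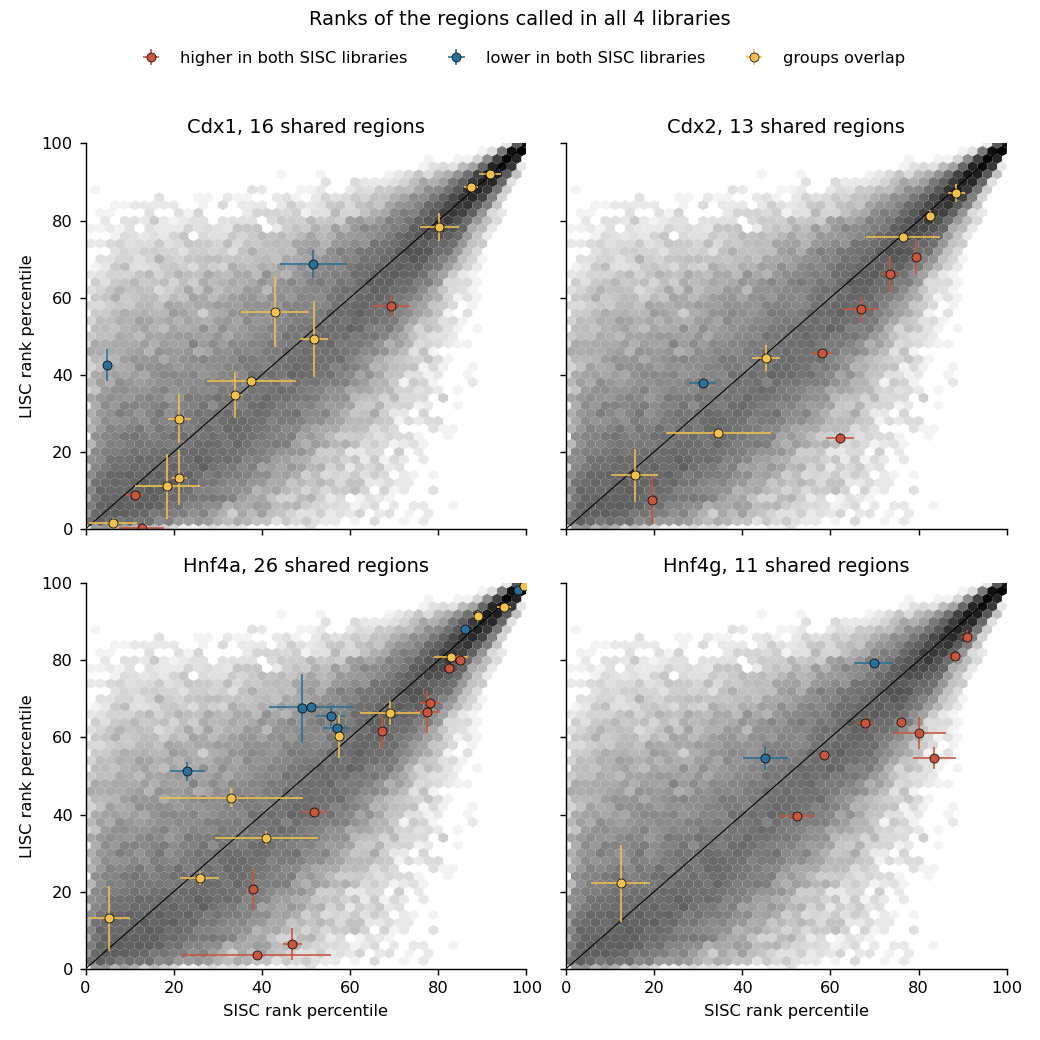
Rank percentile of each shared region in SISC (horizontal axis) and in LISC (vertical axis), 0 to 100, points at the mean of 2 libraries and bars to their values, over all 57829 shared regions in grey (darker for more). Points under the diagonal rank higher in SISC. Of the Hnf4g regions 8 of 11 lie there without overlap of the groups, while Hnf4a has 9 on this side and 7 on the other.

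The list of factors that work beside Cdx and Hnf4 proteins held 17 genes. A gene end region was called in all 4 libraries at 16 of them, beside 62.1% of all genes, and at Gata4 in the 2 SISC libraries alone, a pattern of 1.38% of all genes. By nearest gene end, 5 had more SISC-only than LISC-only regions, 6 had more LISC-only and 6 had equal numbers, where 16.6% and 17.5% of all genes leaned to SISC and LISC. Summed over the factors there were 37 regions of either kind. Gata6, an endoderm factor of the whole intestine, had 6 and 11, Tcf7l2, the main nuclear partner of beta-catenin in crypts, 3 and 7, Gata4 9 and 0, and the nuclear receptor gene Nr5a2 3 and 3, each as SISC-only and LISC-only.

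Of 24 intestinal genes known as targets of Cdx2 or Hnf4, 18 had a gene end region in all 4 libraries, beside 62.1% of all genes. In 2 it was in both SISC libraries alone, namely Apoa4 and Fabp1, which encode an apolipoprotein and a fatty acid binding protein. None had it in LISC alone. Over all genes these patterns were found at 1.38% and 0.695%. By nearest gene end, 9 had more SISC-only regions, 3 had more LISC-only regions and 12 had equal numbers, where 16.6% and 17.5% of all genes leaned to SISC and LISC. They held 27 SISC-only and 14 LISC-only regions in all, beside 9555 and 12191 in the whole series. Mttp, which loads lipid onto apolipoprotein B, had 6 SISC-only and 0 LISC-only regions, Apob itself 5 and 2, and the acyl-CoA synthetase gene Acsl5 2 and 1. The lactase gene Lct had no region within reach of its ends in any library.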

How the data were processed

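The assembly was mm10, and MACS2 2.2.7.1, Bowtie2 2.3.4.1, cutadapt 3.4, bedtools and Picard were listed, per the submitters' processing notes. For read shifting, duplicate handling and the calling threshold no setting is given in the sources used here. The authors deposited 1 narrowPeak list per library, with a fold enrichment (a ratio), a −log10 p and a −log10 q for each peak, and a score derived from the −log10 q. Read depth is unknown, and a missing peak is no evidence of closed chromatin.

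Peaks sharing at least 1 bp were merged (checked against bedtools 2.31.1), classed by library and ranked. Genes and promoter windows came from RefSeq tables of GRCm38.p6; 2 of 4 members, Cdx2 and Hnf4a, matched a promoter entry and Cdx1 and Hnf4g did not. For those without a strand, gene ends replaced starts. The gene table carries no exons, so regions are placed in or outside genes only. Python 3.11.15, numpy 2.4.6 and pandas 2.3.3 were used, and the classes and ranks were tested on simulated data. The members and lists were chosen with earlier results of these data known. Named were the regions within 1 kb of a start or end, up to 5 group-only regions per member and direction, the strongest shared region away from these, and the largest and smallest rank difference; in lists, up to 4 genes with the most group-only regions. Some genes that this rule or the marker lists hold are not reported here. Other regions were named after their values were seen. Alternatives covered the peak threshold, list length, overlap, summit windows, window size, assignment, ranking value and each library left out.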

Additional observations from a re-analysis of the deposited data

How the results depend on the processing

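No paired test was made, since the replicate numbers are not said to mark shared mice or days. With the replicate number as a block, ranks were compared within each number, a comparison chosen after seeing the data. By it, 31 regions ranked higher and 14 lower in SISC, or 47.0% and 21.2%, beside 38.0% and 31.1% of all shared regions. Some regions whose groups overlap have 1 sign in both numbers. Over 14 alternatives, 49 of 64 counts over the 4 loci stayed within 1.5 times the values reported. Of 327 counts by gene and rank differences of single regions, 93 moved. A count moved when it changed by more than 1.5 times. A rank difference moved when it changed by more than the pooled standard deviation of the replicates' rank percentiles. Among the 40000 strongest peaks of each list there were 5 SISC-only, 4 LISC-only and 42 shared regions. With −log10 q of at least 10, LISC-only regions numbered 1, or 1.01%, beside 10.1% of all regions. Keeping only regions with a member as nearest gene left 5 SISC-only, 5 LISC-only and 26 shared regions, or 10.6%, 10.6% and 55.3%. The shares over all regions were 7.96%, 10.2% and 48.2%. Of these 26, 12 ranked higher and 4 lower in SISC, or 46.2% and 15.4%, beside 30.4% and 25.4% of all shared regions. Windows of 200 kb gave 21 LISC-only regions, or 10.6% beside 10.2% of all regions, and 21 ranked lower, or 21.6% beside 25.4%. With each library left out in turn, SISC-only regions ranged from 12 to 26, LISC-only from 10 to 16 and those ranked lower from 15 to 22. These alternatives use fewer or more peaks, bases or libraries by construction. The rank differences recomputed for the largest and smallest of each gene and for Hnf4aos kept their sign wherever the region was still shared. The number of libraries limits precision, and counts of under 10 regions per gene move with single calls.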

Other observations

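The 4 windows also held 17 other protein-coding genes, of which 13 had a gene end region in all 4 libraries, beside 62.1% of all genes. Csf1r, a receptor of macrophages, had none in any library, and Pdgfrb, a receptor of stromal cells, had one in some libraries. At Flt3, a receptor of blood progenitors, and at Gdap1l1, the end was called in the 2 SISC libraries alone, a pattern of 1.38% of all genes, with a −log10 q of 4.59 and 31.0 at Flt3 and 8.004 and 24.3 at Gdap1l1.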
